A study of Danio rerio with 32 samples.

Results

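Gene expression in the tailbuds of zebrafish lacking Stag2b was set against wild type, in embryos that had received no drug. The comparison took 4 pools of stag2b-/- tailbuds and 4 pools of wild-type tailbuds, which are 8 of the 32 RNA-seq libraries of the study, and every gene that passed a filter on low counts, which left 20677 of the 32057 genes counted. Each pool held 80 tailbuds cut at 16 somites from embryos raised, by the sample labels, in E3 medium at 28 °C. Wild-type fish were of the WIK strain, and the mutants were homozygous for the nz207 allele of stag2b, in a line that lives to adulthood and breeds. The remaining untreated libraries came from rad21 nz171 homozygotes and heterozygotes sorted by genotyping the heads. They entered the fit through the filter on low counts and the shared estimate of spread. Matching pools of both genotypes had been given 2.5 µM BIO, an inhibitor of glycogen synthase kinase 3 that stabilizes β-catenin, from 4 hours post fertilization and give the same contrast in other animals. Wild type and mutant came from different lines, so that line background and the stag2b allele cannot be told apart, and the labels do not say whether pools came from separate clutches, so that p-values measure only the spread between these pools.

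Cohesin is a ring of Smc1a, Smc3 and Rad21 bound by a Stag subunit, and it holds sister chromatids together and folds the genome into loops that place enhancers near promoters. Zebrafish carry duplicate genes for each Stag protein, so a mutant of stag2b still has the other members of the family. The tailbud of a somite-stage embryo holds neuromesodermal progenitors, which make spinal cord and the paraxial mesoderm of the somites, and midline progenitors, which make notochord, floor plate and hypochord. Wnt, FGF, BMP and retinoic acid signals pattern these cells, and skin, blood and endothelial precursors, pronephric duct and migrating neural crest lie in or around the same tissue.

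The wild-type libraries held 52463137 to 84208700 counted fragments and the stag2b-/- libraries 39340849 to 61524517. Levels are given throughout as CPM, the counts scaled to a common library size of 1000000 fragments after adjustment by the trimmed mean of M values. On the first component of the 8 libraries, which took 40.8% of the variance of the 500 most variable genes, wild-type pools scored 2.72 to 17.2 and stag2b-/- pools −13.3 to −5.73. Tailbud markers were present in all 8 libraries, with msgn1 between 463 and 787 CPM and tbx16 between 280.3 and 330.0 CPM, and 0 of the 7 tailbud markers passed the test (edgeR's quasi-likelihood; 1 at an unadjusted p under 0.05 and 0 by DESeq2). The cardiac marker myl7 did not exceed 0.163 CPM in any library. RNA of he1.1, an enzyme of the hatching gland, was uneven between pools, at 227.8, 3.25, 64.9 and 13.9 CPM in the wild-type pools and at 19.5, 152.8, 0.788 and 0.540 CPM in the stag2b-/- pools. What lies behind this spread was not tested. Wild-type replicates 1 and 3 and stag2b-/- replicate 2 stood above the rest. In most cases where leaving out these 3 pools ended a call or moved a count by over 1.5 times, this is given below. The alternative was added after the data had been seen. It leaves fewer pools in each group, and how far this alone ends calls was not tested. The pools kept also held he1.1, at up to 19.5 CPM. In pooled tissue, fewer cells of a type and less RNA per cell cannot be told apart.

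The mutated gene itself was transcribed in the mutant. stag2b (chr14:28486213-28527422, GRCz11) was at 168, 194, 217 and 176 CPM in the wild-type pools and 169, 169, 153 and 166 CPM in the stag2b-/- pools, with a log2 fold change of −0.20 ± 0.09 (SE, adjusted p = 0.22). SE throughout is an approximate standard error, the size of the log2 fold change divided by the square root of edgeR's F statistic. Mutant levels lay within a narrow band that touched the lowest wild-type pool, so the transcript level does not separate the genotypes. Of the 21 cohesin genes listed and tested 1, smc1a, changed, against 6.29% of all genes tested. Outside this list rad21l1, a Rad21-like gene, was also lower in edgeR's quasi-likelihood test (log2 fold change −1.56, adjusted p = 0.0058). smc1a, one of the zebrafish genes for the Smc1 arm of the ring, was at 1.43, 1.73, 0.253 and 1.25 CPM in the wild-type pools and 0.110, 0.153, 0 and 0.100 CPM in the stag2b-/- pools, a log2 fold change of −3.70 ± 0.66 (SE, adjusted p = 0.0021). All 4 mutant pools were below the lowest wild-type pool, but the levels were low, and the neighbouring genes on chromosome 23, ribc1 (−3.78) and l1cama (−1.67), were also lower. The 5 core ring genes, smc1a among them, summed to 1383 to 1658 CPM in wild type and 1387 to 1530 CPM in stag2b-/-. This smc1a was thus a trace part of the core transcripts. The other core and Stag genes did not pass in edgeR's quasi-likelihood test: rad21a had a log2 fold change of −0.11 ± 0.11 (SE, adjusted p = 0.65), smc3 0.07 (0.71), stag1b 0.28 (0.077), stag1a 0.05 (0.91) and stag2a 0.02 (0.93), the second value in each case being the adjusted p. Of the 4 Stag genes 2 had an unadjusted p under 0.05, and DESeq2 called 1, stag1b (adjusted p 0.032). stag1b also passed in edgeR with all 32 libraries (0.0094) and without wild-type replicate 3 (0.024) or stag2b-/- replicate 3 (0.035).

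At a false discovery rate (FDR) of 5%, 6.29% of the 20677 genes differed between the genotypes: 498 were higher in stag2b-/- (2.41%) and 802 were lower (3.88%). The median log2 fold change over all tested genes was −0.01, and 10706 genes lay below 0. Falls were also the larger changes, with a median size of 1.201 on the log2 scale against 0.99 for rises. At least 4-fold differences were found for 81 genes that rose and 189 that fell. The share called depended on level: it was 6.61% of genes with an average below 0 log2 CPM, 10.5% between 0 and 2, 7.65% between 2 and 4, 3.79% between 4 and 6 and 3.23% at 6 and over, so the abundant genes of the tailbud were the least often called. Groups of 4 and 4 pools did not overlap for 1106 of the 1300 called genes, against 10.1% of all genes tested. A call and a lack of overlap rest on the same separation of pools, so neither supports the other. The count was sensitive to the libraries: 792 genes passed without wild-type replicate 4, and 691 without the 3 pools with hatching gland RNA, of which 564 were among the 1300.

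**Figure D1:**
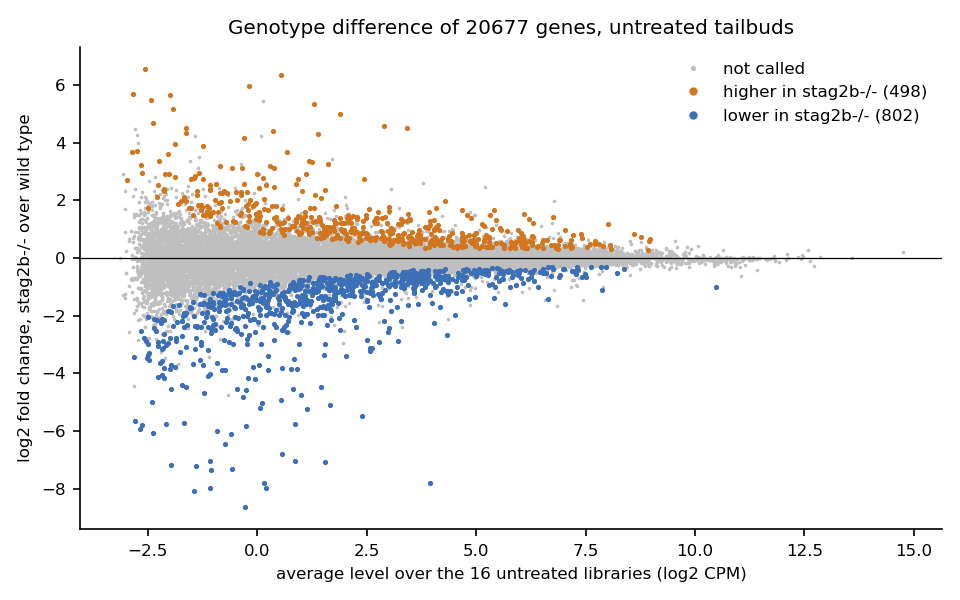
Each point is 1 of 20677 genes, with its average level over the 16 untreated libraries (log2 CPM) on the x axis and its log2 fold change between stag2b-/- and wild type on the y axis. The 498 genes that rose and the 802 that fell are coloured, and the largest changes lie at low levels, with more points far below 0 than far above it.

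Among well-expressed genes that fell (average of at least 1 log2 CPM, no overlap of pools), the gene of lowest adjusted p was pigp, a subunit of the enzyme that starts the glycosylphosphatidylinositol anchor. It was at 13.8, 17.7, 15.7 and 13.1 CPM in the wild-type pools and 3.29, 2.89, 3.67 and 2.92 CPM in the stag2b-/- pools. Its log2 fold change was −2.24 ± 0.13 (SE, adjusted p = 1.8e-08). Both groups were tight and the lowest wild-type pool was well above the highest mutant pool. rfesd, which encodes a Rieske iron-sulfur domain protein, was at 5.99, 8.51, 9.72 and 7.53 CPM in the wild-type pools and 0.533, 0.204, 0.274 and 0.380 CPM in the stag2b-/- pools, a log2 fold change of −4.49 ± 0.40 (SE, adjusted p = 2.2e-06). It was nearly silent in all 4 mutant pools. ppp1r14aa, an inhibitor of myosin phosphatase, was at 8.74, 7.44, 11.3 and 9.99 CPM in the wild-type pools and 1.56, 1.86, 1.13 and 0.741 CPM in the stag2b-/- pools. This gave a log2 fold change of −2.83 ± 0.23 (SE, adjusted p = 1.4e-06). xkr4, of the XK-related family of membrane proteins that includes phospholipid scramblases, was at 7.62, 8.01, 5.17 and 7.36 CPM in the wild-type pools and 1.54, 1.12, 0.925 and 1.78 CPM in the stag2b-/- pools, a log2 fold change of −2.39 ± 0.21 (SE, adjusted p = 1.7e-06). Again no mutant pool came near a wild-type pool. olfml2bb, an olfactomedin-like gene, and htr5aa, a serotonin receptor, had narrower groups: olfml2bb was at 13.9, 12.5, 10.8 and 15.4 CPM in wild type and 2.85, 3.09, 2.66 and 3.12 CPM in the mutant (−2.17 ± 0.19, adjusted p = 1.7e-06). htr5aa was at 17.2, 16.2, 12.5 and 17.05 CPM in wild type and 5.60, 5.31, 4.80 and 4.68 CPM in the mutant (−1.63 ± 0.15, adjusted p = 2.3e-06). These 6 genes kept the call with each library left out in turn and without the 3 pools with hatching gland RNA.

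Some of the largest falls varied widely within wild type. ENSDARG00000078938 (chr5:10003458-10007897) was at 2.63, 9.60, 22.8 and 14.98 CPM in the wild-type pools and 0.0551, 0.0766, 0.0343 and 0.0600 CPM in the stag2b-/- pools. That is a log2 fold change of −7.79 ± 0.70 (SE, adjusted p = 1.1e-05). krt94, a keratin, was at 29.3, 11.3, 4.44 and 9.43 CPM in the wild-type pools and 0.312, 0.204, 0.446 and 0.220 CPM in the stag2b-/- pools, a log2 fold change of −5.48 ± 0.63 (SE, adjusted p = 9.1e-05). mybpc2b, a myosin-binding protein of fast muscle, was at 10.1, 38.2, 17.4 and 19.9 CPM in the wild-type pools and 4.58, 1.89, 2.57 and 2.502 CPM in the stag2b-/- pools. The log2 fold change was −2.88 ± 0.44 (SE, adjusted p = 0.00089). In each the wild-type pools spread several-fold while the mutant pools were uniformly low. A lack of overlap was a condition for entering the list of largest falls and is no result of its own. ndufa4b, a subunit of cytochrome c oxidase, was at 3.205, 11.6, 3.36 and 11.4 CPM in wild type and 0.533, 0.664, 1.06 and 0.861 CPM in the mutant (−3.24 ± 0.65, adjusted p = 0.0083). cox6b1, of the same complex, was at 9.26, 13.97, 3.75 and 18.1 CPM in wild type and 2.46, 1.15, 1.66 and 3.02 CPM in the mutant (−2.44 ± 0.52, adjusted p = 0.01). ca2 (−2.66, below) fell by more than cox6b1. Gene models without a functional name were also among the 15 largest falls. Of these zgc:162331 and si:dkey-85k7.7 lost the call in 6 of the 8 fits that left out 1 library (adjusted p up to 0.12 and 0.10). They also lost it without the 3 pools with hatching gland RNA (0.24 and 0.054). The list also holds ENSDARG00000079269 and si:ch211-237b12.4, which were below 1 CPM in all 8 pools and reached the level required only through the rad21 pools.

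For 5 genes the 4 mutant libraries together held 3 counts or fewer, against a wild-type mean of at least 1 CPM, while 0 genes showed the reverse. asb14b, an ankyrin repeat and SOCS box gene (chr23:19490383-19503530), had 1005 counts in wild type and 3 in stag2b-/-, a ratio of 258 (95% exact interval 88.2 to 1255, counting error only). ENSDARG00000106357, which lies next to ENSDARG00000078938 on chromosome 5, had 668 and 3 counts (ratio 172, interval 58.5 to 835). pimr141, a Pim-related kinase gene, had 326 and 2 counts (ratio 126, interval 34.5 to 1043). Every wild-type pool expressed asb14b, which was at 7.22, 4.82, 3.41 and 1.78 CPM in the wild-type pools and 0.0368, 0, 0.0171 and 0 CPM in the stag2b-/- pools. In the treated pools asb14b was again at 661 and 0 counts, ENSDARG00000106357 at 308 and 1, and pimr141 at 247 and 4. si:ch73-170l17.2 differed from these, with 739 counts against 1 in untreated pools but 2 against 1 in treated pools, so that treated wild type was itself almost without the transcript. si:dkey-100j22.3 had 391 and 1 counts untreated and 23 and 2 treated.

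Among called genes with no overlap of pools, rises were led by genes close to silent in wild type. itga10, an integrin α chain that binds collagen, was at 0.680, 1.95, 1.25 and 1.22 CPM in the wild-type pools and 27.3, 31.9, 22.02 and 35.5 CPM in the stag2b-/- pools, a log2 fold change of 4.51 ± 0.34 (SE, adjusted p = 9.5e-07). The 4 mutant pools lay close together, far above the highest wild-type pool. agt, which encodes angiotensinogen, was at 0.615, 0.976, 0.187 and 0.0816 CPM in the wild-type pools and 13.5, 16.98, 16.4 and 8.83 CPM in the stag2b-/- pools. Its log2 fold change was 4.97 ± 0.54 (SE, adjusted p = 3.3e-05). si:ch211-202h14.1, a gene model without a functional name, was at 0.0219, 0.199, 0.0933 and 0.0933 CPM in the wild-type pools and 3.55, 3.70, 3.87 and 5.94 CPM in the stag2b-/- pools, a log2 fold change of 5.34 ± 0.36 (SE, adjusted p = 1.1e-07). Both went from trace levels to a clear signal in all mutant pools. ubxn2a, a cofactor of the p97 ATPase, was at 0.878, 0.596, 0.907 and 0.804 CPM in the wild-type pools and 8.36, 5.49, 6.36 and 3.86 CPM in the stag2b-/- pools. This gave a log2 fold change of 2.91 ± 0.27 (SE, adjusted p = 2.3e-06). pth2ra, a parathyroid hormone receptor, was at 3.01, 2.205, 2.81 and 3.85 CPM in the wild-type pools and 7.002, 15.07, 10.5 and 8.69 CPM in the stag2b-/- pools, a log2 fold change of 1.79 ± 0.37 (SE, adjusted p = 0.0067). myl9a, a regulatory myosin light chain of smooth and non-muscle cells, was at 20.5, 19.3, 7.75 and 13.2 CPM in the wild-type pools and 85.0, 45.6, 41.7 and 63.2 CPM in the stag2b-/- pools, a log2 fold change of 1.96 ± 0.30 (SE, adjusted p = 0.0007), with pools that varied within each genotype but did not overlap. These 6 kept the call in every fit that left out 1 library, and without the 3 pools with hatching gland RNA pth2ra lost it (adjusted p 0.13).

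**Figure D2:**
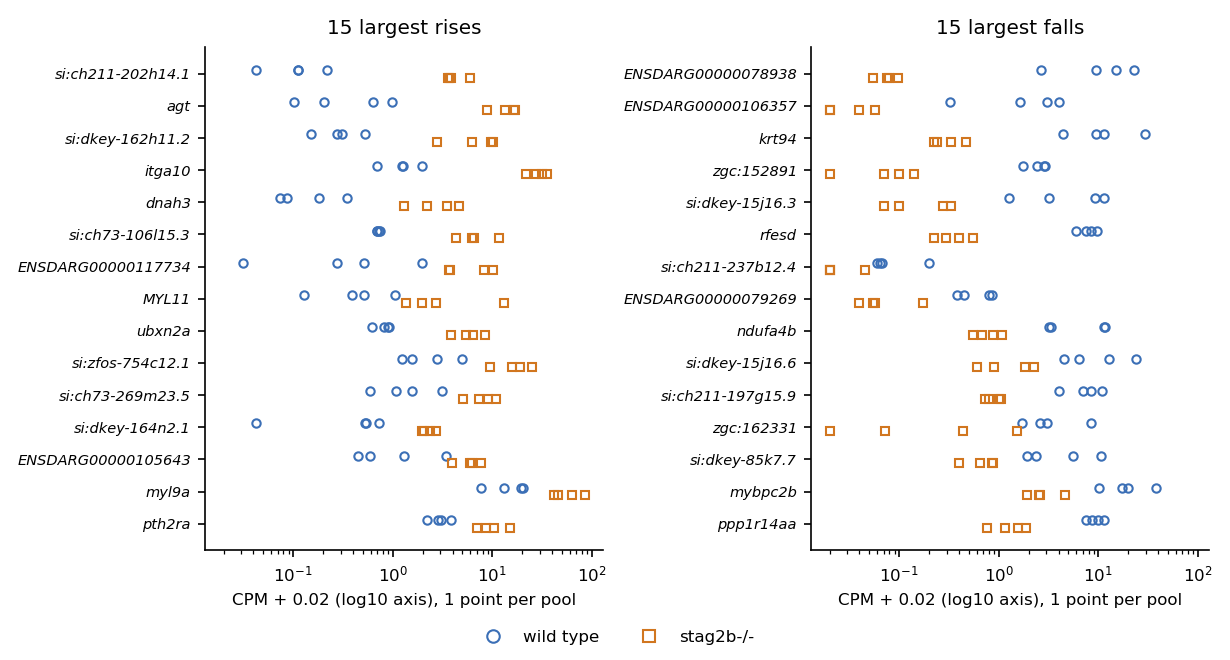
The 15 largest rises (left) and the 15 largest falls (right) among called genes with no overlap of pools, with 1 circle per wild-type pool and 1 square per stag2b-/- pool, on a log10 axis of CPM to which 0.02 was added. itga10 is at 0.680 to 1.95 CPM in wild type and 22.02 to 35.5 CPM in stag2b-/-, while MYL11, on the same side, has 1 mutant pool at 13.2 CPM, apart from the other 3, and lost its call without the 3 pools with hatching gland RNA.

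Genes of the midline progenitors and the early notochord were lower. The study had already reported lower midline genes, in progenitors and in the tissues they form, from these same samples. Their shared direction is therefore no independent evidence. Of 10 genes tested in the list of midline progenitor and notochord regulators, 6 fell and 0 rose (60% called against 6.29% of all genes). All 10 had a log2 fold change below 0, and their median was −0.51, against −0.01 over all genes tested. noto, the homeobox gene that keeps midline progenitors on the notochord path in zebrafish, was at 57.3, 39.9, 52.96 and 57.0 CPM in the wild-type pools and 33.2, 36.5, 28.6 and 32.8 CPM in the stag2b-/- pools. That is a log2 fold change of −0.66 ± 0.16 (SE, adjusted p = 0.016). tbxtb, a Brachyury gene, was at 34.04, 32.4, 45.3 and 35.4 CPM in the wild-type pools and 21.7, 24.4, 21.2 and 19.9 CPM in the stag2b-/- pools, a log2 fold change of −0.76 ± 0.16 (SE, adjusted p = 0.0083). The highest mutant pool of either gene was below the lowest wild-type pool. The study, from these same samples, gave the lower level of tbxtb as not significant. Its paralogue tbxta did not pass: it was at 197, 158, 203 and 160.0 CPM in the wild-type pools and 126, 146, 144 and 129.8 CPM in the stag2b-/- pools. The log2 fold change was −0.39 ± 0.13 (SE, adjusted p = 0.073). foxa2, a forkhead factor of notochord and floor plate, was at 30.9, 27.9, 35.3 and 35.9 CPM in wild type and 24.6, 20.6, 21.9 and 21.2 CPM in the mutant (−0.56 ± 0.15, adjusted p = 0.029). foxa (−0.51), twist2 (−0.58) and emilin3a (−0.52) made up the 6. emilin3a is a matrix gene of the zebrafish notochord, which the list holds beside the regulators. tbxtb kept the call with each library left out, while without wild-type replicate 4 the other 5 lost it (adjusted p 0.060 to 0.12). Without the 3 pools with hatching gland RNA the matrix gene emilin3a alone passed (0.043), so no regulator of the list was called. There tbxtb and noto had adjusted p of 0.077 and 0.13, and foxa, foxa2 and twist2 0.091, 0.21 and 0.23. The summed level of the 10 genes was 774 to 943 CPM in the wild-type pools and 596 to 658 CPM in the stag2b-/- pools.

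Differentiated notochord and floor plate told the genes apart further. Of 23 genes of the notochord sheath and matrix, 1 fell and 0 rose (4.35% called against 6.29% of all genes), with a median of −0.03. Without the 3 pools with hatching gland RNA 2 were called. cnmd (chondromodulin) was that gene, at 12.9, 14.1, 17.01 and 12.4 CPM in the wild-type pools and 8.14, 4.21, 5.02 and 7.05 CPM in the stag2b-/- pools, a log2 fold change of −1.20 ± 0.21 (SE, adjusted p = 0.0015), with no overlap. col2a1a, the major sheath collagen, was at 112, 273, 165 and 241 CPM in wild type and 251, 120.4, 153 and 238 CPM in the mutant (−0.05 ± 0.26, adjusted p = 0.95), and its pools overlapped fully. In the hedgehog and floor plate list, 4 of 17 fell and 0 rose (23.5% called against 6.29% of all genes, median −0.10). shhb, a hedgehog ligand of the zebrafish midline, was at 2.81, 3.58, 4.12 and 4.48 CPM in the wild-type pools and 2.003, 1.35, 2.28 and 1.86 CPM in the stag2b-/- pools, a log2 fold change of −0.997 ± 0.24 (SE, adjusted p = 0.015). Its relative shha did not pass (−0.46 ± 0.15, adjusted p = 0.085). nkx2.9 (−0.88), a homeobox target of hedgehog in the ventral neural tube, ntn1b (−0.84), a netrin guidance cue of the floor plate, and sulf1 (−0.37), a heparan sulfate endosulfatase, were the others. None of these 4 calls held throughout: 0 of the 17 genes passed without wild-type replicate 4, without stag2b-/- replicate 2 or without the 3 pools with hatching gland RNA (adjusted p of the 4 there 0.076 to 0.24).

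Neuromesodermal and paraxial progenitor genes moved little. All 13 tested T-box, msgn1 and ventral homeobox genes had log2 fold changes below 0 (median −0.23). Of these tbxtb and noto passed (15.4% called against 6.29% of all genes). Without the 3 pools with hatching gland RNA neither did, and 0 of the 13 passed. tbx16, a T-box factor of paraxial mesoderm, was at 320.4, 302, 330.0 and 303 CPM in the wild-type pools and 284, 295, 280.3 and 299.9 CPM in the stag2b-/- pools. Its log2 fold change was −0.11 ± 0.12 (SE, adjusted p = 0.65). msgn1, a bHLH factor of the same cells, was at 602, 563, 787 and 497 CPM in wild type and 463, 520.2, 655 and 489 CPM in the mutant (−0.20 ± 0.17, adjusted p = 0.55), and sox2, a progenitor and neural factor, was at 41.1, 40.9, 51.0 and 43.5 CPM in wild type and 44.2, 44.4, 45.7 and 46.3 CPM in the mutant (0.03 ± 0.12, adjusted p = 0.93). The groups of tbx16 abutted without overlap, and those of msgn1 and sox2 overlapped. In the segmentation list of clock and boundary genes, 2 of 27 fell and 0 rose (median −0.14). The share called, 7.41%, was near the 6.29% of all genes. her1, a zebrafish oscillator gene, was at 206, 191, 213 and 235 CPM in the wild-type pools and 163, 140.4, 156 and 169 CPM in the stag2b-/- pools, a log2 fold change of −0.43 ± 0.11 (SE, adjusted p = 0.021). epha4a, an Eph receptor of the somite boundary, was at 143, 203, 187 and 168 CPM in wild type and 129, 127, 126 and 137 CPM in the mutant (−0.43 ± 0.10, adjusted p = 0.016). The call of her1 was lost without stag2b-/- replicate 2 or wild-type replicate 4 (adjusted p up to 0.092), and that of epha4a without stag2b-/- replicate 2 (0.052). When the 3 pools with hatching gland RNA were left out epha4a passed and her1 did not (0.16).

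**Figure D3:**
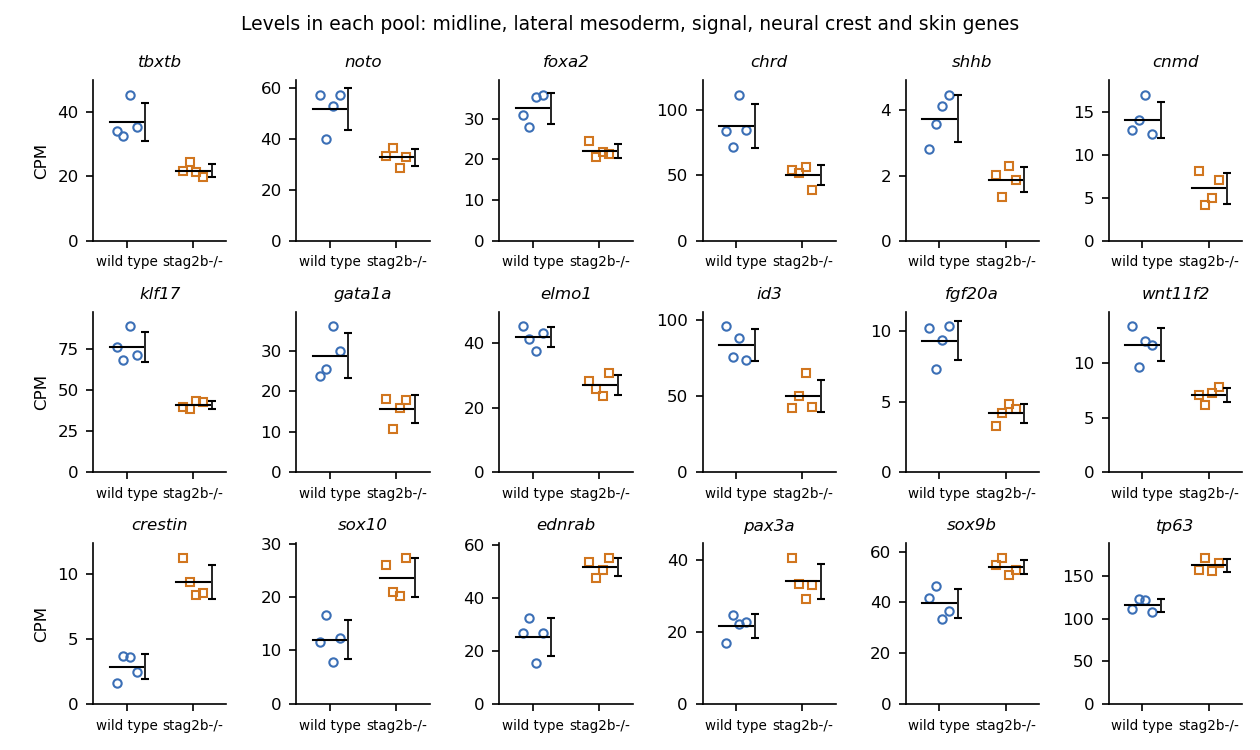
Levels of 18 called genes in CPM, with 1 circle per wild-type pool and 1 square per stag2b-/- pool, the horizontal line at the group mean and the bar showing the SD (n = 4). Midline, lateral mesoderm and signal genes in the upper 2 rows are lower in stag2b-/- and the neural crest and skin genes in the bottom row are higher, each without overlap of pools.

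Motile cilium genes formed the largest named group of falls. Motile cilia are built under Foxj1 and Rfx factors, and in a tailbud-stage zebrafish they are found in Kupffer's vesicle, the floor plate and the pronephric ducts. Of 135 tested genes 48 fell and 1 rose (36.3% called against 6.29% of all genes). A log2 fold change below 0 was found for 124, and the median was −0.66. The summed level was 873 to 1077 CPM in the wild-type pools and 625 to 786 CPM in the stag2b-/- pools, with no overlap. Among 8 transcription factors, rfx3 and foxj1b fell. rfx3 was at 7.31, 8.58, 8.16 and 9.47 CPM in the wild-type pools and 5.99, 4.596, 3.15 and 4.94 CPM in the stag2b-/- pools. This gave a log2 fold change of −0.84 ± 0.19 (SE, adjusted p = 0.0094). foxj1b was at 12.95, 13.3, 12.1 and 14.6 CPM in the wild-type pools and 9.79, 8.48, 9.46 and 8.19 CPM in the stag2b-/- pools, a log2 fold change of −0.56 ± 0.14 (SE, adjusted p = 0.023). The master regulator foxj1a was at 18.1, 25.4, 26.6 and 28.7 CPM in wild type and 21.8, 15.8, 19.8 and 14.5 CPM in the mutant (−0.46 ± 0.17, adjusted p = 0.14), with groups that overlapped, and it did not pass.

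Structural parts of the axoneme were lower in each role. In the dynein arms and their docking, 7 of 23 fell and 1 rose, and 5 were called without the 3 pools with hatching gland RNA. odad2, of the outer arm docking complex, was at 7.27, 8.26, 9.49 and 9.34 CPM in the wild-type pools and 4.26, 3.70, 3.34 and 3.58 CPM in the stag2b-/- pools. That is a log2 fold change of −1.21 ± 0.15 (SE, adjusted p = 6.6e-05). dnah2, a heavy chain of the inner arms, was at 7.70, 10.2, 8.89 and 9.39 CPM in the wild-type pools and 3.77, 3.91, 2.40 and 4.14 CPM in the stag2b-/- pools, a log2 fold change of −1.35 ± 0.19 (SE, adjusted p = 0.00032). The exception was dnah3, another inner arm heavy chain, which rose, at 0.329, 0.0542, 0.0667 and 0.163 CPM in the wild-type pools and 4.67, 3.498, 1.29 and 2.202 CPM in the stag2b-/- pools. The log2 fold change was 4.30 ± 0.53 (SE, adjusted p = 0.00011). Of 18 factors that assemble dynein in the cytoplasm 5 fell, led by dnaaf6 at 3.40, 2.84, 2.24 and 3.38 CPM in the wild-type pools and 1.07, 0.485, 1.01 and 0.5004 CPM in the stag2b-/- pools, a log2 fold change of −1.93 ± 0.27 (SE, adjusted p = 0.00032), and daw1 (−1.05), dnaaf4 (−0.84), dnaaf1 (−0.78) and pih1d2 (−0.77) followed. Radial spokes, central pair, nexin links and proteins inside the tubules gave 34 falls and 0 rises among 86 genes (median −0.69). iqcg, of the nexin-dynein regulatory complex, was at 2.61, 1.92, 3.84 and 3.75 CPM in the wild-type pools and 0.312, 0.204, 0.240 and 0.160 CPM in the stag2b-/- pools, a log2 fold change of −3.71 ± 0.39 (SE, adjusted p = 1.1e-05), and was close to absent in every mutant pool. lrrc23, of the radial spoke, was at 3.40, 2.91, 2.67 and 3.79 CPM in wild type and 0.423, 0.562, 1.03 and 0.661 CPM in the mutant (−2.24 ± 0.30, adjusted p = 0.00018), cfap58 at 4.74, 2.98, 4.08 and 5.14 CPM in wild type and 1.49, 0.434, 0.823 and 1.56 CPM in the mutant (−1.96 ± 0.33, adjusted p = 0.0013), and ak7a, an adenylate kinase of cilia, at 17.7, 8.47, 9.28 and 15.7 CPM in wild type and 6.06, 4.09, 3.68 and 5.12 CPM in the mutant (−1.43 ± 0.22, adjusted p = 0.00048). With 1 library left out the list gave 28 to 51 calls, the lowest without wild-type replicate 4, and it gave 33 without the 3 pools with hatching gland RNA. Of the genes named, dnaaf4, pih1d2 and foxj1b lost the call there (adjusted p 0.17, 0.16 and 0.099). dnaaf1, dnaaf4, pih1d2 and foxj1b were among the genes lost without wild-type replicate 4 (adjusted p up to 0.12), while odad2, dnah2, dnaaf6, daw1, iqcg, lrrc23, cfap58, ak7a, rfx3 and dnah3 kept the call each time.

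**Figure D4:**
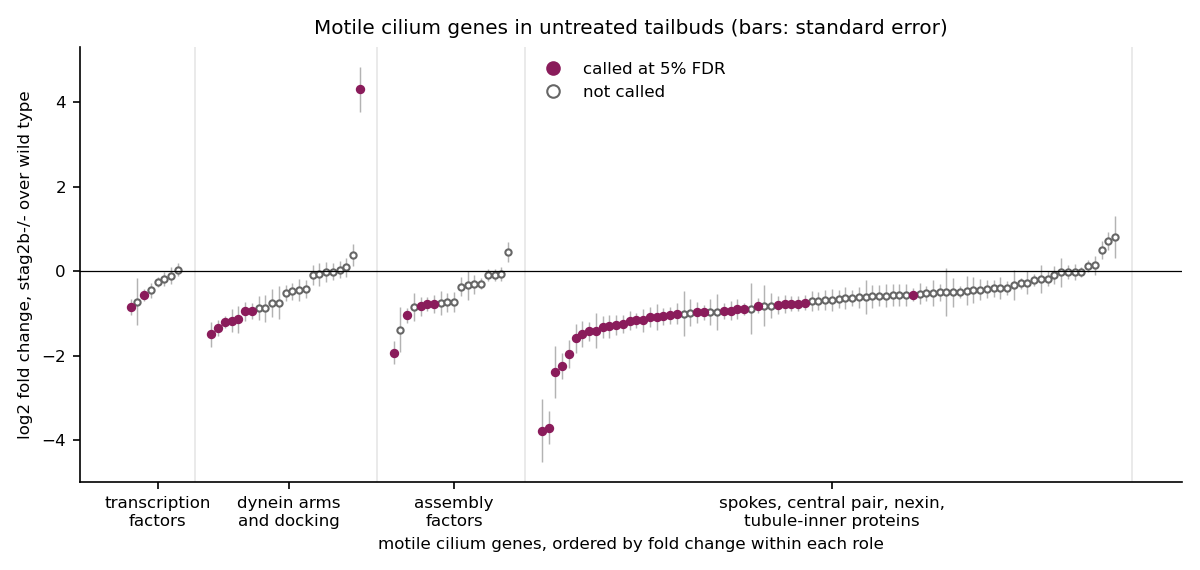
Log2 fold change between stag2b-/- and wild type (y axis) of each tested motile cilium gene, ordered within 4 roles, with bars for the standard error and filled points for genes at 5% FDR. Nearly all points lie below 0, 124 of 135 in number, and dnah3 stands alone at 4.30.

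Blood genes were lower. Of 32 tested, 6 fell and 0 rose (18.75% called against 6.29% of all genes), 29 had a log2 fold change below 0, and the median was −0.48. klf17, a Krüppel-like factor of zebrafish primitive red cells and hatching gland, was at 76.5, 68.2, 89.1 and 71.3 CPM in the wild-type pools and 39.5, 38.5, 43.5 and 42.8 CPM in the stag2b-/- pools, a log2 fold change of −0.89 ± 0.14 (SE, adjusted p = 0.00069). Wild-type pools were above all mutant pools. Among wild-type pools the 2 with hatching gland RNA were the highest, and among mutant pools the 1 with it was the lowest. Without these 3 pools klf17 had an adjusted p of 0.033. gata1a, the master regulator of red cells, was at 23.7, 25.5, 36.1 and 30.04 CPM in the wild-type pools and 18.2, 10.8, 15.95 and 17.9 CPM in the stag2b-/- pools. Its log2 fold change was −0.88 ± 0.21 (SE, adjusted p = 0.016). Again the groups did not overlap. tal1, which starts the blood and endothelial programme, was at 49.3, 73.1, 74.6 and 68.6 CPM in wild type and 52.7, 45.8, 44.1 and 42.3 CPM in the mutant (−0.52 ± 0.14, adjusted p = 0.03), with 1 mutant pool inside the wild-type range. gfi1b (−0.82), a repressor in red cells, lcp1 (−1.15), an actin bundler of leukocytes, and the zinc finger gene znfl2a (−0.63) were the rest. klf17 kept the call with each library left out; gata1a lost it without stag2b-/- replicate 2 or wild-type replicate 3 (adjusted p up to 0.057), lcp1 without either replicate 1 (up to 0.061), and tal1, gfi1b and znfl2a in 5 or 6 of 8 fits (up to 0.12). The list then gave 2 to 4 calls, the fewest without stag2b-/- replicate 2, and 3 without the 3 pools with hatching gland RNA, where gata1a, lcp1 and znfl2a lost the call (adjusted p 0.14, 0.089 and 0.47).

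In the endothelial list, 8 of 30 fell and 0 rose (26.7% called against 6.29% of all genes, median −0.27). elmo1, a regulator of Rac in vessel formation, was at 45.3, 41.4, 37.7 and 43.2 CPM in the wild-type pools and 28.2, 25.8, 23.6 and 30.6 CPM in the stag2b-/- pools, a log2 fold change of −0.63 ± 0.10 (SE, adjusted p = 0.0011). id3, an inhibitor of bHLH factors and target of BMP, was at 96.2, 76.2, 88.3 and 74.0 CPM in the wild-type pools and 42.2, 50.3, 65.4 and 42.9 CPM in the stag2b-/- pools. This gave a log2 fold change of −0.74 ± 0.15 (SE, adjusted p = 0.0051). Neither gene had overlapping groups, and both kept the call in every fit with 1 library left out, but id3 lost it without the 3 pools with hatching gland RNA (adjusted p 0.12), where the list gave 2 calls, elmo1 and kdrl, and s1pr1, sox17, vegfaa, vhl and dusp4 were at 0.10 to 0.26. s1pr1 (−1.20), a sphingosine phosphate receptor, sox17 (−1.50), kdrl (−0.63), a receptor for VEGF, vegfaa (−0.68), its ligand, vhl (−0.57), which degrades hypoxia-inducible factor, and dusp4 (−0.43), a phosphatase of MAP kinases, each lost the call in 4 to 6 of these 8 fits (adjusted p up to 0.12), and the list gave 3 to 6. Parts of the blood and endothelial lists hold genes that the study had picked from these samples, tal1, elmo1, id3, sox17, s1pr1, vegfaa, vhl and dusp4 among them, and their direction is no independent evidence. In the pronephros list, 2 of 23 rose and 0 fell (8.70% called against 6.29% of all genes, median −0.02). These were trpm7, an ion channel and kinase, at 59.8, 52.0, 55.6 and 49.0 CPM in wild type and 77.1, 70.27, 63.5 and 69.0 CPM in the mutant (0.37 ± 0.09, adjusted p = 0.013), and hoxb8a (0.37). trpm7 lost the call without wild-type replicate 4 (adjusted p 0.056) and hoxb8a lost it in 5 fits (up to 0.13). Of the 23, trpm7 alone passed without the 3 pools with hatching gland RNA. In the left-right list 1 of 13, sox17, fell (7.69%, near the share of all genes), and 0 passed without these pools.

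Muscle genes were called in both directions. Of 101 tested in 4 roles 5 rose and 4 fell, which is 8.91% called against 6.29% of all genes. Of the 101, 74 had a log2 fold change above 0 and 27 below 0, and the median was 0.36. The summed level was 2883 to 3490 CPM in wild type and 2698 to 4405 CPM in stag2b-/-, with replicate 2 below every wild-type pool and the other 3 mutant pools above them. Summed sarcomere genes were at 639.99 CPM in that replicate and at 753 CPM or more in wild type. The count of 9 was 15 without wild-type replicate 2, 6 without any 1 of stag2b-/- replicates 1 and 4 and wild-type replicate 1, 5 without the 3 pools with hatching gland RNA and 22 by DESeq2. six1b, a homeobox regulator of muscle precursors, was at 1.80, 2.89, 2.15 and 2.74 CPM in the wild-type pools and 6.08, 2.99, 5.02 and 5.46 CPM in the stag2b-/- pools, a log2 fold change of 1.03 ± 0.21 (SE, adjusted p = 0.0053). hsp90aa1.1, the chaperone of muscle myosin in zebrafish, was at 385, 365, 355 and 414 CPM in the wild-type pools and 619.9, 434, 607 and 632 CPM in the stag2b-/- pools. That is a log2 fold change of 0.59 ± 0.13 (SE, adjusted p = 0.0074). No pools overlapped for either, and stag2b-/- replicate 2 was the lowest mutant pool for both. In the sarcomere role 2 of 40 rose and 2 fell, and 2 were called without the 3 pools with hatching gland RNA. In the main fit actn3b (0.81), an α-actinin, and mybpc1 (1.67) of slow muscle were higher. mybpc2b (above) and myom2a (−0.81) of the M-band were lower. ryr3, a calcium release channel, was at 0.746, 0.777, 3.08 and 1.05 CPM in the wild-type pools and 0.331, 0.383, 0.188 and 0.320 CPM in the stag2b-/- pools, a log2 fold change of −2.23 ± 0.45 (SE, adjusted p = 0.0059). casq1a (−1.62), a calcium store protein, was lower as well and lama4 (0.85), a laminin, higher. actn3b lost the call without stag2b-/- replicate 1, wild-type replicate 1 or wild-type replicate 4 (adjusted p up to 0.077), lama4 without stag2b-/- replicate 1 or 4 (up to 0.053), and mybpc1, myom2a and casq1a in 4 to 6 fits (up to 0.11). These 5 also lost the call without the 3 pools with hatching gland RNA (0.086 to 0.26). myod1, the defining myogenic factor, was at 33.4, 44.5, 49.97 and 67.0 CPM in wild type and 53.3, 35.95, 56.4 and 36.2 CPM in the mutant (−0.10 ± 0.24, adjusted p = 0.87) and overlapped fully. six1b, hsp90aa1.1, lama4 and actn3b were also picked from these samples by the study. MYL11 (ENSDARG00000053254), by its symbol a myosin light chain gene, rose too (3.25, edgeR adjusted p = 0.027) but is not counted in the 4 roles. It lost the call in 4 of the 8 fits with 1 library left out (adjusted p up to 0.091) and without the 3 pools with hatching gland RNA (0.21).

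Signalling genes gave few calls outside the FGF list. The share called was 4.17% of Wnt genes, 4.65% of BMP genes and 12.9% of FGF genes, against 6.29% of all genes tested. Among direct Wnt feedback targets 0 of 15 passed in edgeR's quasi-likelihood test (median −0.06), with 7 at an unadjusted p under 0.05 and 2 by DESeq2, and axin2, the reference target, was at 109.5, 95.5, 107 and 110.0 CPM in the wild-type pools and 111, 123, 97.7 and 115.25 CPM in the stag2b-/- pools. The log2 fold change was 0.08 ± 0.09 (SE, adjusted p = 0.68). Of 18 Wnt ligands 1 fell: wnt11f2, which acts through planar polarity in zebrafish gastrulation, was at 13.4, 9.65, 12.1 and 11.7 CPM in the wild-type pools and 7.08, 6.18, 7.21 and 7.83 CPM in the stag2b-/- pools, a log2 fold change of −0.72 ± 0.14 (SE, adjusted p = 0.0038). Its groups did not overlap and it kept the call with each library left out. The receptor gene fzd8a (0.50; 1 of 30 receptors and transducers) and the secreted inhibitor sfrp2 (0.86; 1 of 13) rose, and both lost the call in 4 or 5 of the 8 fits with a library left out (adjusted p up to 0.18) and without the 3 pools with hatching gland RNA (0.13 and 0.22). Without these pools 2 other genes of the 13 secreted inhibitors were called. Of 31 FGF genes 4 fell and 0 rose, with a median of −0.04. fgf20a was at 10.2, 7.32, 9.36 and 10.3 CPM in the wild-type pools and 3.25, 4.19, 4.82 and 4.50 CPM in the stag2b-/- pools, a log2 fold change of −1.15 ± 0.25 (SE, adjusted p = 0.0079), and its neighbour on chromosome 1, micu3a, fell too (−1.99). fgf24 was at 8.03, 7.05, 6.08 and 7.01 CPM in wild type and 4.15, 4.93, 4.71 and 4.26 CPM in the mutant (−0.64 ± 0.14, adjusted p = 0.0077), and fgf3, a tailbud ligand, was at 52.2, 50.1, 56.7 and 54.3 CPM in wild type and 33.8, 42.2, 43.7 and 37.5 CPM in the mutant (−0.44 ± 0.11, adjusted p = 0.017). Mutant pools were lower than all wild-type pools for all 3 ligands, and of these fgf3 lost the call in 4 fits that left out 1 library (up to 0.052). The FGF list gave 2 to 7 calls there, the most without wild-type replicate 2, and 2 without the 3 pools with hatching gland RNA. In the BMP list 2 of 43 fell, id3 and chrd. chrd, the antagonist of BMP made by midline progenitors, was at 83.7, 71.5, 112 and 84.5 CPM in the wild-type pools and 53.9, 51.9, 56.5 and 39.0 CPM in the stag2b-/- pools, a log2 fold change of −0.80 ± 0.15 (SE, adjusted p = 0.0031), and kept the call with each library left out. Of 18 retinoic acid genes 0 passed in edgeR, with 5 at an unadjusted p under 0.05 and 2 by DESeq2. Without the 3 pools with hatching gland RNA wnt11f2, fgf20a, fgf3, chrd and id3 lost the call (adjusted p 0.12, 0.094, 0.11, 0.059 and 0.12), so that 0 of the 43 BMP genes passed.

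Neural crest genes were higher. Of 19 specifiers 7 rose and 0 fell (36.8% called against 6.29% of all genes), with a median of 0.33. crestin, a zebrafish neural crest transcript, was at 1.65, 3.67, 3.63 and 2.49 CPM in the wild-type pools and 11.3, 9.42, 8.41 and 8.51 CPM in the stag2b-/- pools. Its log2 fold change was 1.71 ± 0.25 (SE, adjusted p = 0.00036). sox10, a crest factor of glia and pigment cells, was at 11.5, 16.6, 7.80 and 12.3 CPM in the wild-type pools and 26.02, 20.96, 20.3 and 27.4 CPM in the stag2b-/- pools, a log2 fold change of 0.98 ± 0.20 (SE, adjusted p = 0.0054). The lowest mutant pool of either exceeded the highest wild-type pool. ednrab, an endothelin receptor of pigment precursors, was at 26.8, 32.4, 15.5 and 26.7 CPM in the wild-type pools and 53.8, 47.7, 50.9 and 55.4 CPM in the stag2b-/- pools. This gave a log2 fold change of 1.03 ± 0.16 (SE, adjusted p = 0.00049). pax3a (0.65 ± 0.15, adjusted p = 0.011), of dorsal neural tube and crest, and sox9b (0.45 ± 0.10, adjusted p = 0.01) rose as well, and pax7a, with no count in any wild-type library, had 0 to 0.349 CPM in the mutants and lost the call in 6 fits with 1 library left out (adjusted p up to 0.15). pax7a did not pass the filter on low counts in the 8 libraries compared and was tested only with the rad21 pools in the fit. snai1b, of migrating mesoderm and crest, was at 39.5, 74.9, 61.7 and 61.8 CPM in wild type and 85.9, 86.4, 95.4 and 79.3 CPM in the mutant (0.54 ± 0.15, adjusted p = 0.03) and lost the call without stag2b-/- replicate 3 or wild-type replicate 4 (adjusted p up to 0.068). crestin, sox10, ednrab, pax3a and sox9b kept the call with each library left out, and the list gave 5 to 7 calls. Without the 3 pools with hatching gland RNA it gave 2, crestin and ednrab, and sox10, pax3a, sox9b, pax7a and snai1b had adjusted p of 0.067, 0.15, 0.15, 0.12 and 0.22. Summed levels were 599 to 751 CPM in wild type and 781 to 941 CPM in stag2b-/-.

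In the list of neurogenesis and neurons, 6 of 54 rose and 1 fell (12.963% called against 6.29% of all genes, median 0.24). sncgb, a synuclein, was at 0.373, 0.416, 0.267 and 0.490 CPM in the wild-type pools and 1.05, 0.689, 1.097 and 1.40 CPM in the stag2b-/- pools, a log2 fold change of 1.45 ± 0.28 (SE, adjusted p = 0.0037), and kept the call. stmn1b (0.67) and stmn2b (0.60), stathmins of young neurons, syt1a (1.02), a synaptic calcium sensor, pou3f1 (0.68) and en1b (1.83) rose and slc6a1b (−3.02), a transporter of GABA, fell, but these lost the call in 3 to 7 fits with 1 library left out (adjusted p up to 0.14), and the list gave 2 to 6. slc6a1b, like pax7a, did not pass the filter on low counts in the 8 libraries compared and was tested only with the rad21 pools in the fit. Without the 3 pools with hatching gland RNA sncgb was the 1 gene called. In the list of SoxB progenitor and patterning genes 2 of 30 rose (6.67%, near the share of all genes), which are pax3a and pax7a, and 0 passed without these pools.

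Skin genes moved in both directions. Of 48 periderm and basal epidermis genes 4 rose and 4 fell (16.7% called against 6.29% of all genes), with a median of 0.16. tp63, the master regulator of basal epidermis, was at 111, 123, 122 and 108 CPM in the wild-type pools and 157, 172, 156 and 165 CPM in the stag2b-/- pools, a log2 fold change of 0.49 ± 0.09 (SE, adjusted p = 0.0027). Its groups did not overlap, and it kept the call throughout. The abundant keratin krt4 overlapped widely, at 37239.9, 27285, 16672 and 22546 CPM in wild type and 26909, 32841, 31792 and 29508 CPM in the mutant (0.22 ± 0.20, adjusted p = 0.58). krt98 rose from trace levels, at 0.176, 0.126, 0.0533 and 0.163 CPM in the wild-type pools and 0.643, 1.81, 3.02 and 3.76 CPM in the stag2b-/- pools, a log2 fold change of 4.15 ± 0.61 (SE, adjusted p = 0.00039), and krt18b, a simple epithelial keratin, was at 4.79, 4.102, 1.75 and 2.48 CPM in wild type and 7.002, 7.97, 12.8 and 11.1 CPM in the mutant (1.58 ± 0.34, adjusted p = 0.01). Beside krt94, krt93 (−2.40), its neighbour on chromosome 11, and krt1-c5 (−1.16) were lower. agr1 (0.65) rose and icn2 (−1.11), an ictacalcin of skin, fell. krt93, krt1-c5 and agr1 lost the call in 5 or 6 fits with 1 library left out (adjusted p up to 0.092), krt93 also without the 3 pools with hatching gland RNA (0.081), and icn2 without stag2b-/- replicate 1 or 2 (adjusted p up to 0.064). The summed level of the list was 43543 to 100080 CPM in wild type and 64861 to 79257 CPM in the mutant, so that the wild-type range enclosed the mutant range.

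Ionocyte and yolk genes were lower in part. ca2, the carbonic anhydrase of ionocytes and red cells, was at 112, 67.7, 21.4 and 44.4 CPM in the wild-type pools and 16.98, 10.2, 3.91 and 7.77 CPM in the stag2b-/- pools. That is a log2 fold change of −2.66 ± 0.48 (SE, adjusted p = 0.0043). It varied several-fold within each genotype and yet did not overlap. With ndrg1a (−1.37, lost in 7 fits with 1 library left out, adjusted p up to 0.067) it was 1 of 2 called among 17 ionocyte genes (11.8% against 6.29% of all genes). Of 30 genes of yolk syncytial layer and liver, 25 had a log2 fold change below 0 and the median was −0.97. apoc1 fell and agt rose (6.67% called). The count of 2 was 9 without wild-type replicate 2, 3 without wild-type replicate 1 or 3, and 5 by DESeq2 or with all 32 libraries. apoc1, an apolipoprotein, was at 2227, 1694, 1219.7 and 1897 CPM in the wild-type pools and 917, 753, 922 and 954 CPM in the stag2b-/- pools, a log2 fold change of −0.99 ± 0.15 (SE, adjusted p = 0.00044). apoeb, its neighbour on chromosome 16, was at 2072, 2054, 1852 and 1970.2 CPM in wild type and 1516, 1668, 1753 and 1687 CPM in the mutant (−0.26 ± 0.10, adjusted p = 0.15). apoc1 and apoeb made up most of the summed level, 3851 to 4557 CPM in wild type and 2807 to 2886 CPM in the mutant. Markers of the yolk syncytial layer proper summed to 63.3 to 901 CPM and 93.3 to 301 CPM, with 0 of 5 called by edgeR (0 at an unadjusted p under 0.05 and 0 by DESeq2), and their part in the fall of apoc1 was not tested.

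Matrix genes gave 6 rises and 1 fall among 64 collagens and laminins (median −0.01), which is 10.9% called against 6.29% of all genes. The count was 3 without stag2b-/- replicate 4, between 5 and 8 with another library left out, and 1, col16a1, without the 3 pools with hatching gland RNA. col16a1, a fibril-associated collagen, was at 6.91, 7.25, 9.79 and 9.20 CPM in the wild-type pools and 27.4, 19.5, 17.8 and 27.5 CPM in the stag2b-/- pools. The log2 fold change was 1.47 ± 0.16 (SE, adjusted p = 1.9e-05). col5a2b, a fibrillar collagen, fell, at 1.71, 1.14, 1.89 and 1.67 CPM in wild type and 0.551, 0.357, 0.497 and 0.941 CPM in the mutant (−1.44 ± 0.29, adjusted p = 0.0057). col28a2a was at 139, 222, 74.8 and 184 CPM in wild type and 409, 281, 269 and 457 CPM in the mutant (1.19 ± 0.28, adjusted p = 0.016) and lost the call without stag2b-/- replicate 4 (adjusted p 0.058). Without the 3 pools with hatching gland RNA col5a2b and col28a2a were at adjusted p of 0.12 and 0.073. In none of these 3 genes did the pools overlap. In the adhesion list 1 of 22 rose and 2 fell (13.6% called, and 1 gene called without the 3 pools). The largest change was in vimr2, a vimentin-related gene, at 5.05, 10.2, 5.69 and 6.60 CPM in the wild-type pools and 3.95, 2.43, 3.34 and 1.96 CPM in the stag2b-/- pools, a log2 fold change of −1.24 ± 0.25 (SE, adjusted p = 0.0056). Of 25 heat shock and unfolded protein genes 3 rose and 2 fell (20% called), 13 were below 0, and 2 passed without the 3 pools. hsp90aa1.2 was at 22.9, 31.2, 18.5 and 20.2 CPM in the wild-type pools and 31.2, 54.1, 122 and 85.7 CPM in the stag2b-/- pools, a log2 fold change of 1.66 ± 0.30 (SE, adjusted p = 0.0033), with mutant pools that varied several-fold (adjusted p 0.061 without the 3 pools with hatching gland RNA). hspe1 (0.39) and hspd1 (0.31), the mitochondrial chaperonins, also rose, and hspa1b (−1.25) and chac1 (−0.48), a glutathione-degrading enzyme of the unfolded protein response, fell. Each lost the call in 1 to 7 fits with 1 library left out (adjusted p up to 0.11), and chac1 and hspd1 without the 3 pools (0.17 and 0.069). Of 36 immediate early and AP-1 genes 3 rose and 0 fell (8.33% called, median 0.26), and 1 passed without the 3 pools. jun was at 53.9, 45.2, 51.8 and 49.3 CPM in wild type and 66.7, 77.5, 73.8 and 77.4 CPM in the mutant (0.56 ± 0.10, adjusted p = 0.0025). ier5l was at 156, 150.4, 139.7 and 141 CPM in wild type and 181, 195, 197 and 183 CPM in the mutant (0.37 ± 0.08, adjusted p = 0.0066), with an adjusted p of 0.060 without the 3 pools. atf3 (0.85) was the other, and it lost the call in 6 fits with 1 library left out (up to 0.12) and without the 3 pools (0.20). Within oxidative phosphorylation 3 of 106 genes rose and 2 fell, a share of 4.72% that was below the 6.29% of all genes. Of these sdha, of succinate dehydrogenase, was at 86.6, 79.0, 67.0 and 72.7 CPM in wild type and 119, 104, 108 and 107 CPM in the mutant (0.52 ± 0.10, adjusted p = 0.0033). Of 28 replication genes 0 passed in edgeR (2 at an unadjusted p under 0.05 and 0 by DESeq2), of 80 cytosolic ribosomal protein genes 0 (1 at an unadjusted p under 0.05 and 0 by DESeq2) and of 19 p53 targets 0 (5 at an unadjusted p under 0.05 and 1 by DESeq2). Of 32 mitotic genes 1 passed, anln (−0.46), and it lost the call in 5 of the fits that left out 1 library (adjusted p up to 0.12) and without the 3 pools (0.13).

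The treated pools gave the same contrast in other animals, with no library in common, and in that fit 20.2% of 20475 genes were called (10.1% higher and 10.2% lower). Of the 1300 genes called in untreated pools 1274 were tested there. The direction was the same for 1150 of them, or 90.3%, against 65.2% of the 20190 genes tested in both. The direction and the call were shared by 721 genes, which are 55.5% of the untreated calls and 17.4% of the treated ones, and 9 genes were called with opposite signs. itga10 was at 0.884, 0.349, 1.01 and 0.770 CPM in treated wild type and 33.5, 31.2, 41.4 and 46.4 CPM in treated mutants, with 5.69 ± 0.29 (SE, adjusted p = 5.1e-10) as its log2 fold change. pigp was at 19.6, 17.6, 22.9 and 21.5 CPM in treated wild type and 2.36, 2.105, 2.01 and 2.47 CPM in treated mutants, with −3.19 ± 0.12 (SE, adjusted p = 4.4e-13). rfesd kept a fold change of −4.24, iqcg −3.82, ubxn2a 3.03 and ppp1r14aa −2.22. Of the motile cilium genes 3 were higher and 68 lower among 134 in treated pools (median −0.58). The list of midline regulators, which holds emilin3a, gave 0 and 8 among 10 (median −0.42). The neural crest specifiers gave 6 and 0 among 19 (median −0.08). The blood list gave 1 and 5 of 32 (median −0.07), in which klf17 had a fold change of −0.07 and gata1a −0.31. T-box, msgn1 and ventral homeobox genes gave 0 and 8 of 13 (median −0.40), and FGF genes 1 and 18 of 31 (median −0.27).

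The difference between untreated and treated contrasts was tested as an interaction in the 32 libraries, where 287 of 21385 genes passed (1.34%), 101 of them among the 1300. Of the 185 genes that the naming rule selected, 16 passed. krt94 fell by 5.48 in untreated pools and had a fold change of −0.06 in treated ones, a difference of 5.41 ± 0.70 (SE, adjusted p = 0.00015). Its treated pools were at 0.785, 0.629, 0.863 and 1.32 CPM in treated wild type and 0.607, 0.938, 0.916 and 0.959 CPM in treated mutants. lcp1 fell in untreated pools and rose in treated ones (1.22), a difference of 2.36 ± 0.41 (SE, adjusted p = 0.0019). si:ch211-202h14.1 rose in both but less in treated pools (0.97), a difference of −4.37 ± 0.43 (SE, adjusted p = 3.9e-07), and pigp fell further there, a difference of −0.96 ± 0.17 (SE, adjusted p = 0.0014). vimr2 was at 6.99, 8.51, 7.09 and 6.19 CPM in treated wild type and 7.89, 8.06, 6.43 and 6.60 CPM in treated mutants, and its fold change went from −1.24 to 0.01, a difference of 1.24 ± 0.29 (SE, adjusted p = 0.023). For klf17 and gata1a the interaction did not pass (adjusted p = 0.087 and 0.62).

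**Figure D5:**
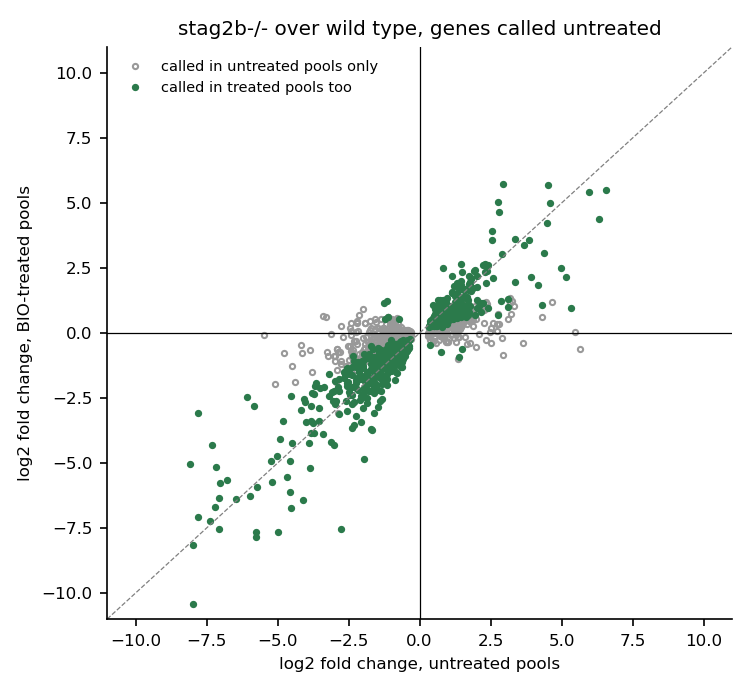
Log2 fold change of stag2b-/- over wild type in untreated pools (x axis) and BIO-treated pools (y axis) for the 1274 genes called untreated and tested in both, with filled points for those also called in treated pools and a dashed line of equal change. Most points lie in the lower left and upper right, 1150 with the same sign, and a few near the horizontal axis, such as krt94, have a change in untreated pools alone.

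The rad21 pools share the wild-type libraries with this contrast, so values are set side by side only. pigp had a log2 fold change of −2.24 in stag2b-/-, 0.65 in rad21-/- and 0.66 in rad21+/-, chrd −0.80, 0.04 and 0.02, and wnt11f2 −0.72, −0.0012 and 0.29. itga10 had 4.51, 2.94 and 0.72, si:ch211-202h14.1 5.34, 5.005 and 4.22, and klf17 −0.89, −2.10 and −1.43.

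Called genes were spread over all 25 chromosomes. The share was lowest on chromosome 25 (3.49%), had a median of 6.38% and was highest on chromosome 14 (9.77%), which carries stag2b, with 8.17% on chromosome 11 next. On chromosome 14, 23 genes rose and 45 fell of 696 tested. Within 5 Mb of stag2b 21 of 178 genes were called (11.8%), and elsewhere on the chromosome 9.07%. Of the genes named above, kdrl (chr14:32983769-33044955), vimr2, foxa and fgf24 lie on this chromosome. In the treated pools chromosomes 20 (24.8%) and 3 (24.6%) had the highest shares. Of the called genes 167 stood in 79 runs of immediate neighbours that moved the same way, 7 of them of at least 3 genes. The longest held gaa2 and 4 ugt5b genes, lower, on chromosome 1 (chr1:9499645-9652725), where the ugt5b models overlap and their counts cannot be cleanly separated. nuggc.1, nuggc.2 and nuggc.3 rose on chromosome 19 (chr19:7838644-7923910), and casp10, a caspase, prkra and si:ch73-108h4.3 rose on chromosome 9 (chr9:1313418-1376460). With 1 library left out, nuggc.1, nuggc.2, nuggc.3, casp10 and gaa2 lost the call in 3, 5, 4, 5 and 4 of 8 fits. Without the 3 pools with hatching gland RNA nuggc.1, nuggc.3, casp10 and gaa2 lost it (edgeR adjusted p 0.074, 0.061, 0.084 and 0.21).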

How the data were processed

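The deposited file holds raw counts of fragments per gene, for which the authors trimmed reads (Cutadapt), mapped them on GRCz11 (HISAT2), handled alignments in SAMtools and counted exons per gene (Ensembl 98 annotation) on the reverse strand with featureCounts 1.5.3; fragments that mapped to several places or genes were not counted. RNA was poly(A)-selected and libraries were stranded. Counts of the 16 untreated libraries were scaled by trimmed mean of M values, filtered with filterByExpr and fitted in edgeR 4.0.16 under R 4.3.3 (robust quasi-likelihood, 1 mean per group), with Benjamini-Hochberg adjustment over all tested genes at 5% FDR; treated libraries were fitted alike and the interaction in all 32 libraries. Statistics were tested on simulated data for the 16 untreated libraries. With 200 genes changed by 1 log2 unit, 59.5% of these were called, and 10 unchanged genes were called. A gene that did not pass may therefore still differ. Figures used matplotlib 3.10.9. No column of the file was left unused.

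Named genes were the cohesin genes, the 15 highest and 15 lowest fold changes and 10 lowest p among called genes that did not overlap and averaged 1 log2 CPM or more, called members (up to 8 per role) and defining genes of lists, and genes at 3 counts or fewer in 1 group; l1cama, micu3a, apoeb, col2a1a, genes in runs of neighbours and genes called with opposite signs in treated pools were added after their values were seen, and some genes that the rule selects are not reported here. The members and lists were chosen with earlier results of these data known, and rad21l1, outside them, was added after its value was seen. Of 32057 genes 28991 could be named; symbols given only in capitals were resolved through the name table, checked on 139 genes. Alternatives were DESeq2 1.42.0, its size factors, no filter, a replicate block, other sets of libraries and each library left out, and, chosen after seeing the data, the 3 pools with over 50 CPM of he1.1 left out together. Same-numbered treated pools deviated together (correlations 0.21 to 0.41), so their numbers pair by the data, and a block gave 5670 calls there against 4140.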

Additional observations from a re-analysis of the deposited data

Results flagged for a closer look

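In several genes 1 pool lay far from the other 3 of its group. With about 1 in 20 groups of 4 picked out by chance, single cases carry little weight. Among stag2b-/- pools, replicate 1 was the highest for MYL11 (ENSDARG00000053254, 13.2 CPM), ntn1b (3.00 CPM), sfrp2 (6.54 CPM) and pimr141 (0.0368 CPM) and the lowest for agr1 (519.8 CPM). Replicate 2 was the highest for he1.1 (152.8 CPM), ENSDARG00000079269 (0.153 CPM) and si:ch211-237b12.4 (0.0255 CPM) and the lowest for hsp90aa1.1 (434 CPM) and nkx2.9 (1.28 CPM). Replicate 3 was the highest for vhl (7.51 CPM). Replicate 4 was the highest for gfi1b (5.02 CPM), si:ch211-202h14.1 (5.94 CPM), si:ch73-170l17.2 (0.02002 CPM) and si:dkey-100j22.3 (also 0.02002 CPM). Among wild-type pools, replicate 3 was the highest for ryr3 (3.08 CPM) and nuggc.2 (0.667 CPM), and replicate 2 was the highest for si:ch211-237b12.4 (0.181 CPM) and the lowest for jam2b (1.45 CPM).

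For other genes the genotype difference itself differed between treated and untreated pools, by an interaction term in the fit to all 32 libraries. The difference of the log2 fold changes (treated minus untreated) was positive for krt94 (5.41), lcp1 (2.36), myom2a (1.299) and vimr2 (1.24). It was negative for si:ch211-202h14.1 (−4.37), dnah3 (−3.26), agt (−2.502), hsp90aa1.2 (−2.11), krt18b (−1.73), six1b (−1.21), pigp (−0.96), col16a1 (−0.85) and hspd1 (−0.45). For myom2a, which was lower in untreated mutants, the treated fold change was 0.49 ± 0.21 (SE, adjusted p = 0.11). For six1b the treated fold change was −0.18 ± 0.22 (SE, adjusted p = 0.62), and for hsp90aa1.2 it was −0.44 ± 0.27 (SE, adjusted p = 0.3).

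The 9 genes called with opposite signs in untreated and treated pools were looked at after their values were seen. Each also passed the interaction test (adjusted p of 0.0064 or less). That test uses the same libraries, and calls of opposite sign make passing it nearly certain, so it is no separate evidence. jam2b, a junctional adhesion molecule, was at 2.96, 1.45, 2.87 and 2.88 CPM in the wild-type pools and 1.305, 1.35, 1.22 and 0.841 CPM in the stag2b-/- pools without BIO, and at 0.884, 0.873, 0.774 and 0.703 CPM in treated wild type and 1.73, 1.07, 0.957 and 1.32 CPM in treated mutants. Its log2 fold change was −1.11 untreated and 0.62 treated, a difference of 1.73. arid5b, a DNA-binding chromatin protein, went the other way, at 1.84, 3.31, 2.04 and 2.65 CPM in the wild-type pools and 3.45, 3.93, 4.64 and 4.48 CPM in the stag2b-/- pools without BIO. With BIO it was at 6.17, 4.77, 5.15 and 5.66 CPM in treated wild type and 3.26, 2.89, 3.19 and 3.79 CPM in treated mutants, and the fold changes were 0.75 and −0.73, a difference of −1.48. hemk1, a methyltransferase of release factors, had 0.38 untreated and −0.45 treated (difference −0.83), and ugt1a1, a glucuronosyltransferase, −1.26 and 1.17 (difference 2.42). The others were lcp1 and 4 genes without a functional name. These were si:ch211-165i18.2 (−1.22 and 0.54, difference 1.75), si:dkey-28g23.6 (1.49 and −0.60, difference −2.09), zgc:64002 (1.40 and −0.92, difference −2.33) and ENSDARG00000082753 (−0.71 and 0.53, difference 1.24). hemk1 and arid5b each lost the untreated call in 6 of 8 fits with 1 library left out. Without the 3 pools with hatching gland RNA hemk1, arid5b, jam2b, lcp1, ENSDARG00000082753 and si:dkey-28g23.6 lost it (edgeR adjusted p 0.24, 0.35, 0.11, 0.089, 0.073 and 0.056). The untreated call of ugt1a1 was at 0.0495 in the main fit.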

How the results depend on the processing

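The count of 1300 depended on the fit. DESeq2's Wald test called 2054 genes, which held all 1300, and a fit to all 32 libraries called 2480. A fit to only the 8 libraries compared called 558, of which 544 were among the 1300, and it has fewer samples from which to estimate spread. Leaving out 1 library gave 792 to 1401, the lowest without wild-type replicate 4. Leaving out the 3 pools with hatching gland RNA gave 691 with 43.4% of the 1300, and that fit too has fewer samples. DESeq2's size factors (1301) and no filter (1195) moved the count little. The treated count of 4140 stayed within 1.5 times under its alternatives. The share of calls that were higher was 38.3%, and 45.7% with all 32 libraries and 32.1% without the 3 pools.

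Same-numbered untreated pools did not deviate together (correlations −0.13 to 0.20), so the number is not taken as a pairing, and a replicate block gave 1371 calls, 1170 of them among the 1300. Of 142 called genes followed through the alternatives, 72 kept the call in all 8 fits with 1 library left out. Of the rest 21 lost it in 1 to 3 and 49 in 4 or more, and none of the 142 changed sign under any alternative run. In the fit to only the 8 libraries compared 62 of the 142 lost the call, and without the 3 pools with hatching gland RNA 69 did. Among the 62 were rfx3, six1b, ca2 and fgf24 (edgeR adjusted p 0.054, 0.055, 0.064 and 0.069), which had kept it with each library left out. With only the 8 libraries the motile cilium list gave 28 calls, blood 2, midline regulators 3 and neurogenesis and neurons 1. rad21l1 was not followed. Genes that were not called changed sign in places: with 1 library left out, log2 fold changes ran from −0.25 to 0.15 for col2a1a, −0.24 to 0.099 for myod1, −0.00011 to 0.12 for sox2, −0.076 to 0.21 for stag1a, −0.010 to 0.080 for stag2a and −3.48 to 0.66 for he1.1, and without the 3 pools msgn1 was at 0.017 and stag1a at −0.0066. The causes were not tested. At a total of 39340849 fragments in the shallowest of the 8 libraries, genes below 1 CPM rest on few counts per pool, and their fold changes are the least precise.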
